A study of Mus musculus with 49 samples.

Results

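The comparison described here is that of tTA mice with DN (Double Negative) mice in the CA3 pyramidal layer of the hippocampus, and its members are the 10 CA3 arrays titled for these genotypes, 5 tTA and 5 DN, out of 49 arrays in the series. tTA mice had a transgene for the tetracycline-controlled transactivator, driven by the Camk2a promoter, which is active in forebrain excitatory neurons, and had no tau responder. DN mice came from the same cross, between a Camk2a-tTA line and a tau responder line kept on different inbred backgrounds, and had neither transgene. All were females of 6.1 months. rTg4510 mice, which carry tTA and the responder for mutant human tau, entered the fit with 6 CA3 arrays and are quoted only for their levels. Each array held laser-captured CA3 layer of 1 mouse, so what was measured is neurons with the glia and vessels among them. The comparison asks what carrying the transactivator, without tau, goes with in CA3. The mouse numbers of the tTA animals ran below all of those of the DN animals (mouse4570 to mouse4637 against mouse4797 to mouse4886), and although the study calls its controls littermates, the labels give neither litter nor date of collection. Genotype therefore cannot be told apart from anything else that differed between these runs of mouse numbers, and any difference holds for these 2 sets of mice.

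The transactivator is a fusion of the bacterial tetracycline repressor with a viral activation domain. It binds a responder promoter when doxycycline is absent, and tTA-only animals serve as the control that shares this protein with the bigenic line. CA3 pyramidal neurons receive mossy fibers from the dentate gyrus (DG), excite each other through recurrent collaterals, and project to CA1. In the CA3 layer astrocytes and microglia lie between these neurons. In a bulk capture, more cells of a type and more RNA per cell cannot be told apart.

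The arrays correlated closely. Correlations over all probe sets ran from 0.979 to 0.991 between tTA arrays and from 0.990 to 0.995 between DN arrays, and the median SD of a probe set was 0.214 in tTA and 0.149 in DN, on the log2 scale used for every level and difference below. The label CA3 was checked against its markers. In DN mice Rspo2 averaged 7.45 in CA3 against 4.43 in CA1 and 3.997 in DG, and Nectin3 averaged 10.96 against 8.57 and 8.23. Bok, Iyd and Socs2 were likewise brightest in CA3, and Coch was not. Markers of neighbouring layers stood out in single arrays. Pou3f1, a CA1 marker, stood at 7.22 in tTA mouse4592 and at 3.73 to 4.48 in the other tTA arrays, against 3.62 to 4.58 in DN. Calb1, a dentate granule marker, reached 6.61 and 6.60 in tTA mouse4592 and mouse4637 and 6.78 in DN mouse4886, and the mean level of 9 granule markers overlapped between the genotypes (5.28 to 5.89 in tTA, 4.79 to 5.74 in DN). The results below are given with all arrays. The counts without mouse4592 (1342), without mouse4637 (1569) and without mouse4886 (1995) stand beside a total of 2057 called probe sets.

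Between tTA and DN mice, 2057 of 22626 probe sets (9.09%) were called in CA3 at an adjusted p below 0.05 (limma, Benjamini-Hochberg adjustment). Of these, 932 (4.12% of those tested) were higher in tTA and 1125 (4.97%) were lower, covering 616 and 720 genes. Most differences were modest, with a median size of 0.58 among the called, and 138 reached 2-fold, 71 of them higher and 67 lower. The groups did not overlap in 1505 of the called probe sets. Over all probe sets, tTA lay wholly above DN in 1032 (4.56%) and wholly below in 1284 (5.67%). Of 51 gene lists examined, those of astrocytes, microglia and ribosomes had the largest shares of genes called higher, and that of cadherins and cell adhesion the largest share called lower. Of 136 called probe sets singled out by a fixed rule, 96 remained called without any 1 array. The chaperones Hsp90aa1, Hsph1 and Dnajb4, described below, lost their calls without at least 1 array. Among the genes described below, the calls of Crip2, Gja1, C1qa, Ccl6, H2-K1, Ifit1, Gbp3, Qdpr, Vtn, Hba-a1, L1cam, Cdh10, Plxna2, Scn8a, Scn2a, Gabra2, Gria3, Grin2a, Grin2b, Cnih3, Vsnl1, Syt1, Cplx2, Kif1b, Dync1h1, Inpp5d, Psenen, Cdk5, Gsk3b, Ppp2ca, Gng5, Maff, Mapt, Cd109 and Igfbp5 were lost without at least 1 array, with adjusted p of up to 0.131 (Cnih3). The total count varied with single arrays, from 1060 without DN mouse4866, 1212 without DN mouse4797, 1258 without DN mouse4825 and 1342 without tTA mouse4592 to 2269 without tTA mouse4580. It fell to 1083 when the Actb 3-prime to 5-prime ratio, a sign of RNA quality and amplification, was added to the model. That ratio averaged −0.64 ± 0.18 in tTA and −0.45 ± 0.18 in DN (SD, n = 5 each, exact permutation test, two-sided, p = 0.151). With the ratio in the model the calls of Gjb6, Rgs5, Atp6v1h, Rgs7 and Nfkbie were lost, as were those named above as lost without an array, except Crip2, H2-K1, Qdpr, Vtn, Scn2a, Cnih3, Psenen, Cdk5 and Mapt.

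The locus of the transgene was read first. The Camk2a-tTA transgene is known to lie on chromosome 12, among Vipr2, Wdr60, Esyt2, Ncapg2 and Ptprn2. Ptprn2, a receptor-type phosphatase homolog of dense-core vesicles, read 5.37, 5.39, 6.16, 5.56 and 6.02 in the 5 tTA mice, against 6.78, 6.57, 6.63, 6.54 and 6.38 in the 5 DN mice. All tTA arrays were below all DN arrays, with a difference of −0.88 ± 0.16 (SE, adjusted p = 0.00381, limma), and rTg4510 mice, which carry the same transgene, averaged 5.37. Ncapg2, a condensin II subunit, averaged 4.15 in tTA and 4.75 in DN, both dim (below 5.01, the median over probe sets), and missed the threshold (adjusted p = 0.0514). Vipr2, a receptor for vasoactive intestinal peptide, averaged 3.39 in both groups, which is too low to show a loss. Wdr60 and Esyt2 were not measured here. Of 20 measured genes on the Vipr2 side of the locus 1 was called (Crip2, higher by 0.70), and of 3 on the Ptprn2 side 0 were called. Camk2a itself, the gene whose promoter was borrowed, averaged 11.89 in tTA and 11.59 in DN and was not called (adjusted p = 0.121), although the groups did not overlap. The transgene itself is not measured by this array.

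**Figure D1:**
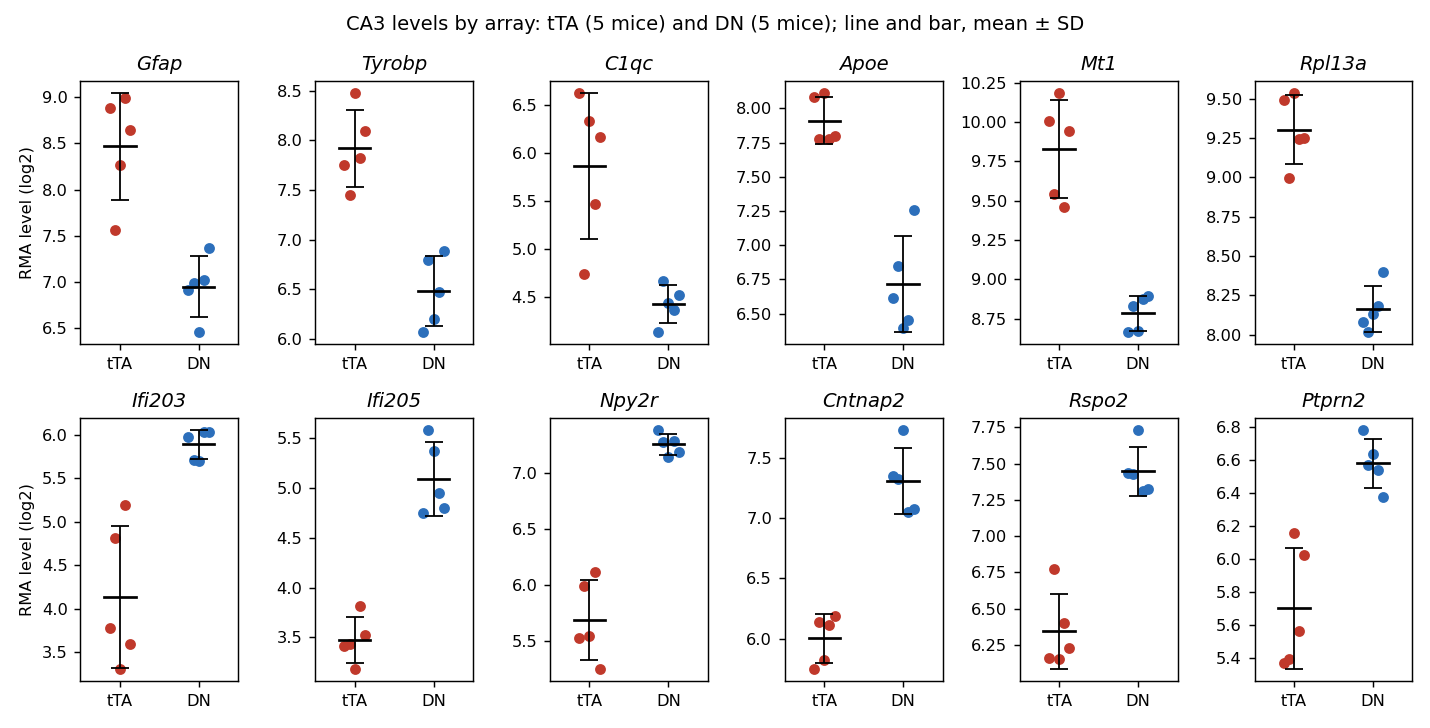
Levels of 12 genes by CA3 array (y axis, RMA level on the log2 scale, a separate range for each gene; x axis, genotype; line and bars, mean ± SD of 5 mice). In every panel the tTA points are separated from the DN points, above them in the upper row and below them in the lower row, with Ifi203 spread widely among tTA mice (3.31 to 5.19) and tight among DN mice (5.71 to 6.03).

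Astrocyte genes rose as a group. Of 18 measured astrocyte markers, 13 were called higher, 0 lower and all 18 had a positive difference, with a median of 0.68 beside 0.03 over all probe sets. Gfap, the intermediate filament of astrocytes, read 8.88, 7.57, 8.26, 8.99 and 8.65 in the tTA mice, against 6.91, 6.99, 6.45, 7.02 and 7.36 in the DN mice. The lowest tTA array lay just above the highest DN array, the difference was 1.52 ± 0.26 (SE, adjusted p = 0.00226), and a second probe set gave the same 1.52. Mlc1, a membrane protein of perivascular astrocyte endfeet, averaged 8.69 ± 0.24 in tTA and 7.47 ± 0.25 in DN (SD, n = 5 each, difference 1.22 ± 0.16 SE, adjusted p = 0.000319). Aldoc, the glycolytic aldolase of astrocytes, averaged 9.87 ± 0.14 and 9.02 ± 0.12 in tTA and DN (adjusted p = 0.000166). The gap junction genes Gja1 and Gjb6, the water channel Aqp4 and the potassium channel Kcnj10 also rose, by 0.40, 0.87, 0.89 and 0.86. Sox9, Slc1a2, Slc4a4 and Ntsr2 differed by 0.24 to 0.38 and Aldh1l1 by 0.79, and these did not pass. Of 20 genes known to be induced in reactive astrocytes 0 were called, with a median of 0.18, but 17 of the 20 were dim in both groups, where little could be read. Gfap, which the paper used as a measure of astrocyte activation, was counted among the 18 astrocyte markers and not among these 20. Serpina3n and Vim, brighter members of that list, differed by 0.23 and 0.47. The mean level over the 18 markers ran from 7.91 to 8.35 in tTA and from 7.33 to 7.66 in DN, without overlap. The count of 13 fell to 8 with the Actb ratio in the model, and to 8 without DN mouse4797 or DN mouse4866.

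Microglial genes showed the same direction. Of 27 measured markers, 15 of them dim in both groups, 12 were called higher and 0 lower, with a median difference of 0.63, and the mean level of the list ran from 4.83 to 5.38 in tTA and from 4.43 to 4.68 in DN. Tyrobp, the adaptor that signals for Trem2 and related receptors, read 7.75, 7.45, 8.48, 7.82 and 8.10 in the tTA mice, against 6.07, 6.79, 6.20, 6.47 and 6.88 in the DN mice. The groups were separated by more than their spread, with a difference of 1.43 ± 0.19 (SE, adjusted p = 0.000486), and rTg4510 mice averaged 8.97, above both. C1qc, a chain of the first complement component, read 6.62, 4.74, 6.33, 5.46 and 6.17 in tTA, against 4.13, 4.67, 4.43, 4.36 and 4.52 in DN. The tTA animals spread over a wide range for this gene, and the lowest of them nearly met the DN group (difference 1.44 ± 0.28 SE, adjusted p = 0.00459). The other chains of the same molecule, C1qb and C1qa, rose by 1.02 and 0.80, with C1qa dim in both groups and C1qb and C1qc dim in DN. Csf1r, the receptor for the growth factor that maintains microglia, rose by 0.77, and the surface receptor P2ry12, typical of resting microglia, by 0.75. Trem2, Tmem119 and Itgam, dim in both groups, differed by 0.15, 0.16 and 0.08 and did not pass.

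Of 24 measured genes of the activated microglial state, 19 of them dim in both groups, 3 were called higher (Apoe, Ctsz and Ccl6) and 0 lower, with a median of 0.17. Through another probe set, 1 gene of the list was called lower. Apoe, the main lipid carrier of the brain and made by astrocytes as well, read 8.08, 7.78, 8.11, 7.78 and 7.80 in tTA, against 6.62, 6.85, 6.39, 6.46 and 7.26 in DN. The tTA values clustered tightly above the DN group (difference 1.20 ± 0.14 SE, adjusted p = 0.000178), and rTg4510 mice averaged 7.79. Of 18 complement genes 14 were dim in both groups. The 3 C1q chains were called, and Masp1, a protease of the lectin pathway, was called through a dim probe set that was not its brightest (difference 0.41). Of 23 interferon and antigen presentation genes 3 were called higher (H2-K1, Ifit1 and Gbp3), by 0.45 to 0.61, with Ifit1 and Gbp3 dim in both groups, as were 16 of the 23. In this list 0 genes were called higher without DN mouse4797 or DN mouse4866, 1 without tTA mouse4637 and 6 without DN mouse4886.

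Other cell types were read through their own lists. Oligodendrocyte markers had 1 call in 15 (Qdpr, higher), with a median of 0.29 and overlapping list levels of 6.94 to 7.54 in tTA and 6.51 to 7.43 in DN. Endothelial and mural markers had 2 calls in 19, Rgs5 and Vtn, both higher. The 18 inhibitory interneuron markers had 0 calls and a median of −0.05. Hemoglobin gave the largest rise among probe sets with a gene name. Hbb-b2, a beta chain, averaged 9.13 ± 0.79 in tTA and 7.59 ± 0.36 in DN (SD, n = 5 each, difference 1.55 ± 0.34 SE, adjusted p = 0.00985). The alpha chain Hba-a1 averaged 8.44 and 7.04, with overlap between the groups and a call (adjusted p = 0.046). Other probe sets of Hba-a1 differed by 1.43 and 1.36 and missed the threshold. The other red cell genes, Slc4a1 and Alas2, differed by 0.21 and −0.04, and the part of blood in the captured tissue was not tested.

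**Figure D2:**
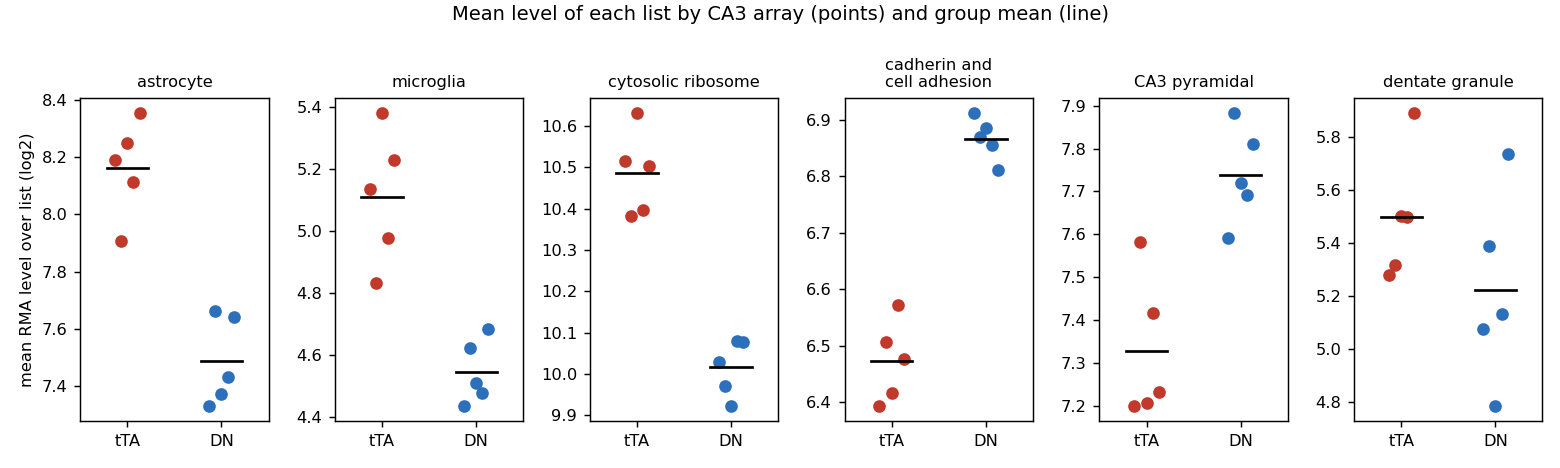
Mean level over the genes of a list in each CA3 array (y axis, log2; points, 5 mice per genotype; line, group mean). tTA and DN arrays are separated for the astrocyte, microglia, cytosolic ribosome, cadherin and cell adhesion and CA3 pyramidal lists and overlap for dentate granule markers.

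Ribosomal protein genes gave more calls than any other list. These genes encode the structural proteins of the cytosolic ribosome and are expressed together in every cell. Of 62 measured, 44 were called higher and 0 lower, and 60 had a positive difference, with a median of 0.44. When any probe set of a gene was counted, 47 were called higher and 1 lower. Rplp0, the P0 protein of the stalk, read 9.96, 9.71, 9.91, 9.80 and 9.79 in tTA, against 8.85, 8.79, 8.80, 8.72 and 9.07 in DN. The groups were apart by several times their spread (difference 0.99 ± 0.09 SE, adjusted p = 8.45e-05), and rTg4510 mice lay between them at 9.38. Rpl13a, Rps9 and Rps2, further subunit proteins, rose by 1.14, 0.82 and 0.73, each without overlap. Rps14 rose by 1.35, the highest of the list, whereas Rpl15 and Rps6 differed by −0.10 and −0.06. Ribosomal protein genes have many processed pseudogenes of near-identical sequence, and probes cannot always separate them. The list mean was 10.38 to 10.63 in tTA, 9.92 to 10.08 in DN and 10.15 to 10.51 in rTg4510. With the Actb ratio in the model 33 of the 62 were called.

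Genes of the mitochondrial respiratory chain rose in part. Of 72 measured, 22 were called higher and 0 lower, with a median of 0.21. The called genes included Uqcrq of complex III, Cox8a and Cox4i1 of complex IV and Atp5e of the ATP synthase, which rose by 0.91, 0.74, 0.66 and 0.73. The core subunits Ndufs1, Sdha, Uqcrc2 and Atp5a1 differed by −0.40, −0.13, −0.13 and −0.04 and were not called. With the Actb ratio in the model 9 of the 72 were called, and leaving out single arrays gave 11 (without DN mouse4825 or DN mouse4866), 13 (without tTA mouse4570 or tTA mouse4592) or 14 (without tTA mouse4637 or DN mouse4797) to 19. Other probe sets of Uqcrq, all dim, differed by 0.07 to 0.26 and were not called.

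Among genes of the response to oxidants and metals 7 of 25 were called higher and 0 lower. The median of the list was 0.04 and 13 of the 25 were positive. Counting any probe set of a gene, 1 was called lower. Mt1, a metallothionein that binds zinc and copper, read 10.01, 9.54, 10.19, 9.46 and 9.94 in tTA, against 8.66, 8.83, 8.67, 8.88 and 8.89 in DN, a separation of 1.04 ± 0.13 (SE, adjusted p = 0.000289). Gpx4, the peroxidase that reduces lipid peroxides, averaged 11.13 and 10.14, and the glutathione transferase Gstm1 9.76 and 8.78, in tTA and DN. The targets of Nrf2 that mark its activation in many cells, Hmox1, Nqo1, Srxn1, Gclc and Gclm, were not called and differed by −0.56 to 0.04.

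**Figure D3:**
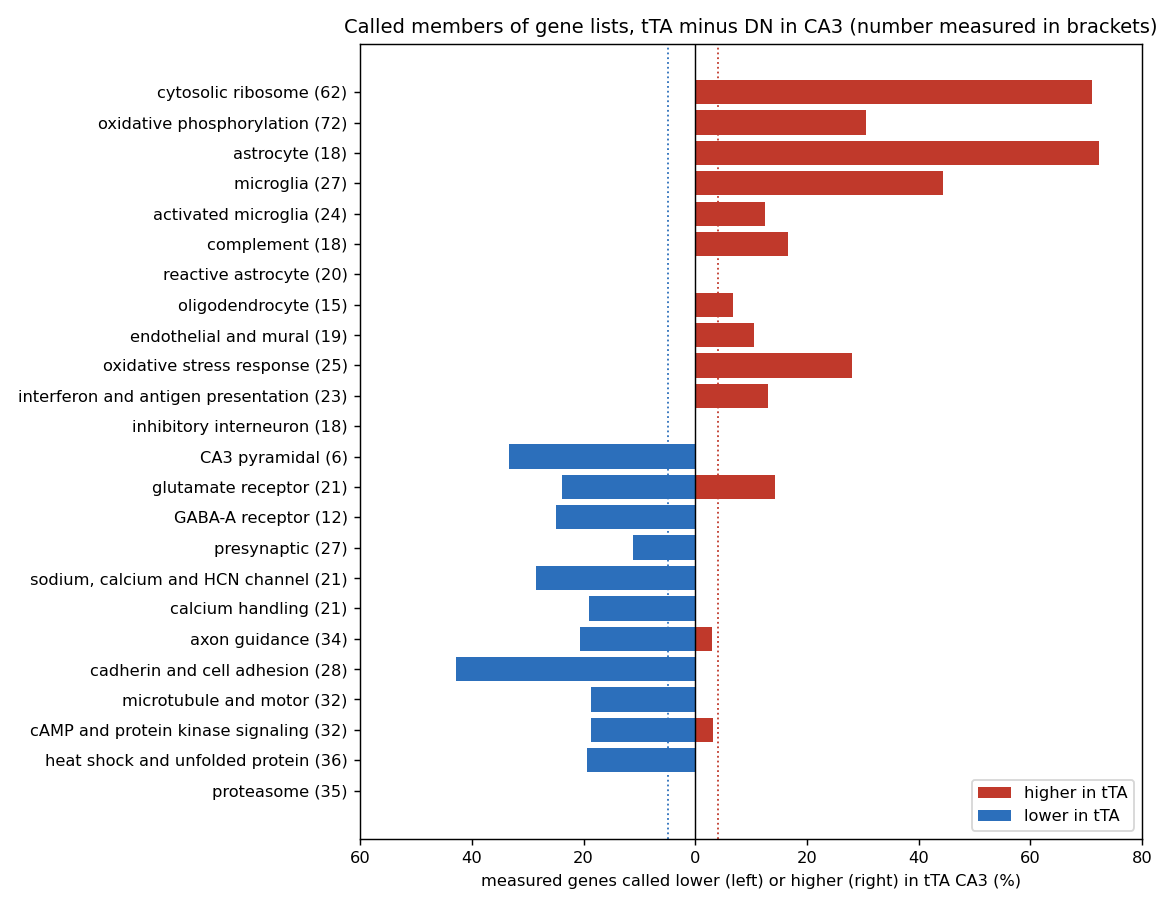
Share of the measured genes of each list that were called higher (red, right) or lower (blue, left) in tTA CA3 (x axis, percent; number of genes measured in brackets; dotted lines, 4.12% higher and 4.97% lower over all probe sets). Ribosome and astrocyte lists lie farthest to the right and cadherins and cell adhesion farthest to the left, and reactive astrocyte, inhibitory interneuron and proteasome lists have no bar.

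The falls were led by neuronal surface genes. Of 28 cadherin and cell adhesion genes 12 were called lower and 0 higher, with a median of −0.43, and the list mean was 6.39 to 6.57 in tTA and 6.81 to 6.91 in DN. Cntnap2, a neurexin-related protein that anchors potassium channels along axons, read 5.75, 6.14, 5.82, 6.12 and 6.19 in tTA, against 7.35, 7.32, 7.73, 7.05 and 7.08 in DN. The highest tTA array was well below the lowest DN array (difference −1.30 ± 0.16 SE, adjusted p = 0.000214). Chl1 and L1cam, adhesion molecules of the L1 family, fell by 1.12 and 0.61, and the cadherins Cdh9, Cdh10 and Cdh2 by 0.96, 0.49 and 0.46. Cdh9 and Nectin3 are adhesion molecules of the CA3 mossy fiber synapse, and Nectin3 fell by 0.49. The count of 12 fell to 7 with the Actb ratio in the model and to 7 without DN mouse4825. Among 34 axon guidance genes 7 were lower and 1 was higher, with a median of −0.27. The semaphorin receptors Nrp2 and Plxna2 fell by 0.82 and 0.96, the netrin receptor Unc5c by 0.81 and the slit receptor Robo1 by 0.67. In this list 4 genes were called lower with the Actb ratio in the model, and 4 without DN mouse4866.

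Of the 6 CA3 pyramidal markers measured, Rspo2 and Nectin3 were called lower and 0 were called higher. Rspo2, a secreted enhancer of Wnt signaling, read 6.16, 6.77, 6.16, 6.40 and 6.23 in tTA, against 7.44, 7.43, 7.73, 7.31 and 7.33 in DN, a difference of −1.10 ± 0.19 (SE, adjusted p = 0.00211). Socs2, Iyd and Coch differed by −0.49, −0.32 and −0.30 and Bok by 0.23, none of them called. The list mean ran from 7.20 to 7.58 in tTA and from 7.59 to 7.88 in DN. The astrocyte and microglia levels given above moved with this fall and with those of the other neuronal lists, and their part in them was not tested.

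Falls among channels and receptors were uneven. Sodium, calcium and HCN channel genes had 6 calls lower and 0 higher in 21, led by Cacna1e, the pore of R-type calcium channels, at −1.08 ± 0.21 (SE, adjusted p = 0.00445), and including the sodium channels Scn8a and Scn2a at −0.79 and −0.42. The GABA-A receptor subunits Gabrb1, Gabrb2 and Gabra2 were lower, 3 calls in 12 genes with a median of −0.03. Gabrb1 read 8.32, 8.67, 8.14, 8.75 and 8.59 in tTA, against 9.80, 9.74, 9.66, 9.43 and 9.33 in DN, without overlap (difference −1.10 ± 0.16 SE, adjusted p = 0.000628). Ionotropic glutamate receptor genes moved both ways, 5 lower and 3 higher in 21. The AMPA subunits Gria2 and Gria3 fell by 0.66 and 0.59 and the NMDA subunits Grin2a and Grin2b by 1.03 and 1.07, whereas the AMPA auxiliary proteins Cnih2 and Cnih3 rose by 0.70 and 0.87. Neto1, an auxiliary protein of kainate receptors, which are prominent at the mossy fiber synapse, averaged 9.97 ± 0.12 in tTA and 10.58 ± 0.11 in DN (SD, n = 5 each, adjusted p = 0.00057). A second probe set of Gria2 differed by 0.06 and a second, dim one of Grin2b by −0.11, neither called. With the Actb ratio in the model 3 of the sodium, calcium and HCN channel genes and 2 of the glutamate receptor genes were called lower, and the same counts were left without DN mouse4866 for the channels and without DN mouse4797 for the receptors. The 5 falls among the receptors became 3 without tTA mouse4592, tTA mouse4637, DN mouse4825, DN mouse4866 or DN mouse4883, and the 3 rises became 1 without any of 8 arrays (all but tTA mouse4580 and DN mouse4886).

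Calcium handling genes had 4 calls in 21, all lower, but the median of the list was 0.02 and 11 of the 21 were positive. Counting any probe set of a gene, 1 was called higher. Atp2a2, the pump that refills the endoplasmic reticulum, averaged 10.66 and 11.56 in tTA and DN (difference −0.89 ± 0.12 SE, adjusted p = 0.000494), the release channel Ryr2 fell by 0.82, the sodium-calcium exchanger Slc8a1 fell by 1.27 and the calcium sensor Vsnl1 fell by 0.30. Protein kinase genes included Prkca, lower by 0.85, and Prkcb, lower by 0.38. Presynaptic genes had 3 calls in 27, all lower: Syt1, Cplx2 and Pclo, by 0.50, 0.62 and 0.49. Motor and microtubule genes had 6 calls in 32, all lower, among them the kinesins Kif3a and Kif1b and the dynein heavy chain Dync1h1, by 0.74, 0.49 and 0.80. By any probe set of a gene, 9 of that list were called lower and 1 higher. The other 4 probe sets of Kif1b differed by −0.34 to 0.11 and were not called. With the Actb ratio in the model motor and microtubule genes had 2 calls lower and 1 higher and presynaptic genes 1 lower and 1 higher, and without DN mouse4797 these lists had 2 and 1 calls lower. Presynaptic genes also had 1 call lower without tTA mouse4592, and motor and microtubule genes 3 without tTA mouse4570, tTA mouse4592, tTA mouse4637, DN mouse4825 or DN mouse4866. Proteasome genes had 0 calls in 35, beside 1 higher and 1 lower when any probe set of a gene was counted.

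Genes named for Alzheimer's disease and tau moved both ways, 6 higher and 2 lower in 29. By any probe set of a gene, 6 were called higher and 5 lower. Besides Apoe, the lipoprotein Clu, the microglial phosphatase Inpp5d and the gamma-secretase subunit Psenen rose by 0.57, 0.38 and 0.53. The tau kinase Cdk5 and its activator Cdk5r2 rose by 0.52 and 0.36, while the tau kinase Gsk3b and the phosphatase subunit Ppp2ca fell by 0.57 and 0.21. Both falls were lost with the Actb ratio in the model and without any 1 of tTA mouse4570, tTA mouse4637, DN mouse4797, DN mouse4825 and DN mouse4866. A second, dim probe set of Cdk5 differed by −0.06. G protein and RGS genes had 6 calls higher in 34, with the gamma subunits Gng5 and Gng13 at 0.86 and 0.74, and 1 lower, Rgs7 at −0.64, beside 2 higher and 0 lower with the Actb ratio and 3 higher without DN mouse4866 or DN mouse4883. A second, dim probe set of Gng5 differed by −0.01. The lysosomal list had 4 calls higher and 1 lower in 32, with the proteases Ctss and Ctsz, the first of them a microglial marker, at 0.85 and 0.66 and the proton pump subunit Atp6v1h at −0.58. Neurl1a, 1 of the 4 higher at 0.89, is not a lysosomal gene. Its other 3 probe sets, all dim, differed by −0.18 to 0.14 and were not called. Immediate early genes had 1 call in 32 (Maff, higher and dim in both groups), and 2 were called lower through another probe set.

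Npy2r, the presynaptic receptor through which neuropeptide Y inhibits glutamate release, was among the largest falls. It read 5.53, 5.99, 5.55, 6.12 and 5.26 in tTA, against 7.38, 7.27, 7.14, 7.29 and 7.19 in DN. The DN values lay within a narrow band and every tTA value was more than 1 below it (difference −1.56 ± 0.26 SE, adjusted p = 0.002), and rTg4510 mice averaged 5.50. Gspt2, a translation release factor, averaged 6.00 ± 0.78 and 7.48 ± 0.19 in tTA and DN (SD, n = 5 each). Pde7a, a cAMP phosphodiesterase, fell by 1.60 through a probe set dim in both groups. Another dim Pde7a probe set fell by 0.60, while the brightest differed by −0.01, so the fall was not shared by all probe sets of the gene. Mapt, the mouse tau gene, was likewise uneven: 1 probe set fell to 5.00 in tTA, against 6.21 in DN (adjusted p = 0.0177), while the other 2 differed by −0.43 and 0.36 and were not called. rTg4510 mice averaged 6.20 on the called probe set.

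Some heat shock and unfolded protein genes fell, among them chaperones of the endoplasmic reticulum. Of 36 in the list 7 were called lower and 0 higher, with a median of −0.13, and 4 were called lower without DN mouse4866. With any probe set of a gene counted, 10 were called lower and 1 higher. Hspa5, the main chaperone of that compartment, read 10.10, 10.12, 10.24, 10.20 and 10.19 in tTA, against 10.77, 10.61, 10.69, 10.78 and 10.59 in DN. The shift was small and even across animals (difference −0.52 ± 0.09 SE, adjusted p = 0.00343), and a second probe set fell by 0.63. Creld2 and Pdia4, which act on disulfide bonds in that compartment, fell by 0.67 and 0.66, and Atf6, a transcription factor released when proteins misfold there, by 0.97. The other called genes of the list, Hsp90aa1, Hsph1 and Dnajb4, fell by 0.35, 0.37 and 0.35. Ddit3 and Trib3, late stress genes, differed by 0.07 and 0.27. The promoters of Hspa5 and Creld2 are shown because both hold the endoplasmic reticulum stress element to which ATF6 is known to bind, CCAAT and CCACG with 9 bases of any kind between them, searched on both strands in the 250 bases before each start and present in 0.113% of 32851 RefSeq promoters (GRCm38.p6). Capitals mark the match, which in Creld2 is on the opposite strand. Hspa5 lies at chr2:34771840-34772089 (plus strand) and Creld2 at chr15:88819396-88819645 (plus strand).
Hspa5: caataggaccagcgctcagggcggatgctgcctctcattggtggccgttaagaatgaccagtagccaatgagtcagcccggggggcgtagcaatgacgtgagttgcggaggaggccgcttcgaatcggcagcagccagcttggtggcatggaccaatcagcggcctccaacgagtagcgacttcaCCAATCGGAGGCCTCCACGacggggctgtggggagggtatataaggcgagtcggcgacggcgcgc
Creld2: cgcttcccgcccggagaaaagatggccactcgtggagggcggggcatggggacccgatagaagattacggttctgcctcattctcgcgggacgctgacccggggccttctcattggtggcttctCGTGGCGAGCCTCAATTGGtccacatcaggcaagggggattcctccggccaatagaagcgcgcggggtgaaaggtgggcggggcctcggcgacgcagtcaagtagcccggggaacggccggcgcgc
The element ends 46 bases before the Hspa5 start and 107 bases before the Creld2 start. A match describes the sequence and is not a measure of binding. Among the called genes of the list only Hspa5 and Creld2 were looked up, so the matches say nothing about the others.

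The largest falls among probe sets with a gene name were in Ifi203 and Ifi205, members of the interferon-inducible p200 family, whose proteins bind DNA in the nucleus or cytosol. Ifi203 read 3.79, 4.81, 3.31, 5.19 and 3.6 in tTA, against 5.97, 5.72, 5.71, 6.03 and 6.03 in DN. Ifi205 read 3.41, 3.43, 3.18, 3.82 and 3.52 in tTA, against 4.75, 5.58, 5.37, 4.94 and 4.80 in DN. In both the groups were fully separated, the tTA means were dim, and the differences were −1.75 ± 0.36 and −1.62 ± 0.28 (SE, adjusted p = 0.00707 and 0.00267). A further probe set of each gene was also lower, by 0.69 and 1.14, in the dim range. rTg4510 mice averaged 4.47 and 3.54. These genes lie near each other on chromosome 1, and members of the family are close in sequence, so probes for 1 may read another. Their promoters are shown because the copies can be seen in them: both hold GAAA, 2 bases of any kind and GAAA again, the core of an interferon-stimulated response element, which was present on either strand in 2.98% of the 32851 promoters of the same length. Capitals mark it. Ifi203 has 2 annotated starts, of which the one with the match is given, at chr1:173942493-173942742 (minus strand), and Ifi205 lies at chr1:174031756-174032005 (minus strand), both in GRCm38.p6 from RefSeq.
Ifi203: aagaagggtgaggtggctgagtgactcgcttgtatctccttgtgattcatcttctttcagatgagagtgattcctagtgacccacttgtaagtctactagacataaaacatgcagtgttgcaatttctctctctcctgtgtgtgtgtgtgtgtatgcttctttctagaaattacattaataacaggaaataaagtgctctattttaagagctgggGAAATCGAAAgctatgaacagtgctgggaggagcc
Ifi205: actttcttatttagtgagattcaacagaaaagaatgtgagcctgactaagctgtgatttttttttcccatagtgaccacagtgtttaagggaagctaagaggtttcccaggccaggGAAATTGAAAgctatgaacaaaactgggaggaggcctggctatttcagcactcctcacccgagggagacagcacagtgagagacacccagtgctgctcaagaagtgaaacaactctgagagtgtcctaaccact
In a stretch holding the match and the bases next to it, 31 of 36 bases were identical between the genes. The count includes the fixed bases of the match, which were the same because both genes were required to hold it. The stretch ran further after the match than before it, and the bases just before the stretch differed. Of the 23 other interferon and antigen presentation genes 0 were called lower.

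The tTA difference in CA3 was set against that in the other layers of the same mice. In CA1 3656 probe sets (16.2%) and in DG 3769 (16.7%) were called between tTA and DN (5 tTA and 6 DN arrays each). The difference itself differed between CA3 and CA1 for 163 probe sets (0.72%) and between CA3 and DG for 281 (1.24%), in a model of all arrays with the mouse as a random block. Of these, 30 and 44 were called in CA3 and not in the other layer, and 118 and 191 in the other layer and not in CA3. Of the 51 lists, 23 had no member whose difference varied between CA3 and either of the other layers, and 28 had at least 1, 14 of them against CA1 and 25 against DG. Neuropeptides and forebrain neuron transcription factors had the most over both layers, with 3 members against CA1 and 5 against DG in each list. The ribosome list had 0 such members against either layer, with medians of 0.44 in CA1 and 0.34 in DG, and the respiratory chain list had 0, with medians of 0.28 and 0.20. Astrocyte and microglia lists had 0 such members against CA1 and 1 each against DG (Ntsr2 and C1qa), with medians of 0.46 and 0.45 in CA1 and 0.9998 and 0.94 in DG.

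Ifi203 and Ifi205 were called lower in CA3 and not in CA1 or DG. The Ifi203 difference was −1.75 in CA3, 0.04 in CA1 and 0.16 in DG, and the CA3 difference minus that of CA1 was −1.80 (adjusted p = 0.00236) and minus that of DG −1.92 (adjusted p = 0.000656). In DN mice Ifi203 averaged 5.89 in CA3 but 3.40 in CA1 and 3.42 in DG, so in CA1 and DG it was dim in DN already and a fall there could not have been seen. Ifi205 was likewise dim in DN CA1 and DG (2.93 and 3.01), as was Cd109, a surface glycoprotein that binds TGF-beta. Cd109 averaged 4.72 in tTA CA3 and 6.00 in DN CA3, with some overlap, beside DN levels of 3.45 and 3.24 in CA1 and DG. Its call in CA3 was lost without some single arrays (highest adjusted p = 0.0539). Nfkbie, an inhibitor of NF-kappaB, averaged 4.20 in tTA and 5.36 in DN in CA3, and differed by 0.44 in CA1, the difference between layers being −1.60 (adjusted p = 0.00726). At 3.66 Nfkbie was dim in DN CA1 already, so a fall there could not have been seen. Fmo1, a flavin monooxygenase, ran the other way. It read 4.80, 5.63, 5.04, 4.79 and 4.97 in tTA, against 3.19, 3.50, 4.64, 3.77 and 3.23 in DN, and differed by 0.05 in CA1 and 0.22 in DG, where DN levels were 2.62 and 2.59.

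CA3 and DG differed for several neuronal genes. Cntnap2 and Prkca fell in CA3 and differed by 0.41 and 0.36 in DG, with adjusted p for the difference between layers of 1.22e-05 and 0.00157. Rspo2 and Shisa2 also fell in CA3 and differed by 0.26 and 0.31 in DG (adjusted p = 0.00104 and 0.00155 for the difference between layers), but at 3.997 and 3.23 they were dim in DN DG already, so a fall there could not have been seen. Igfbp5, a binding protein for insulin-like growth factors, rose by 1.11 in CA3 and differed by −0.69 in DG. It is among the 9 dentate granule markers, of which 7 had a positive difference in CA3, with a median of 0.29. The part of captured granule cells in its rise was not tested. C1qa rose in both, by 0.80 in CA3 and 2.07 in DG. Some genes with large tTA differences elsewhere were at low level in CA3: Doc2b, a calcium sensor for vesicle fusion, fell to 5.10 in tTA CA1, against 7.48 in DN CA1, and to 3.62 in tTA DG, against 6.83 in DN DG, whereas CA3 read 3.31 in tTA and 3.09 in DN. The chemokine Cxcl12 and the enkephalin precursor Penk were lower in tTA DG by 3.64 and 3.23 and were dim in CA3, with differences of 0.00 and −0.17. C1ql3, a secreted synaptic organizer, fell by 2.94 in CA1 and averaged 5.21 in tTA and 4.48 in DN in CA3, without a call. A brighter probe set of C1ql3 was not dim in CA3, at 6.65 in tTA and 6.40 in DN, without a call. In CA1 that probe set fell by 2.05. Gfra2, the neurturin receptor, fell by 2.67 in CA1, while in CA3, where it was bright, it averaged 7.99 in tTA and 7.25 in DN (adjusted p = 0.177). Nfkbie, Doc2b, Cxcl12, Penk, C1ql3 and Gfra2 were chosen after their values were seen.

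**Figure D4:**
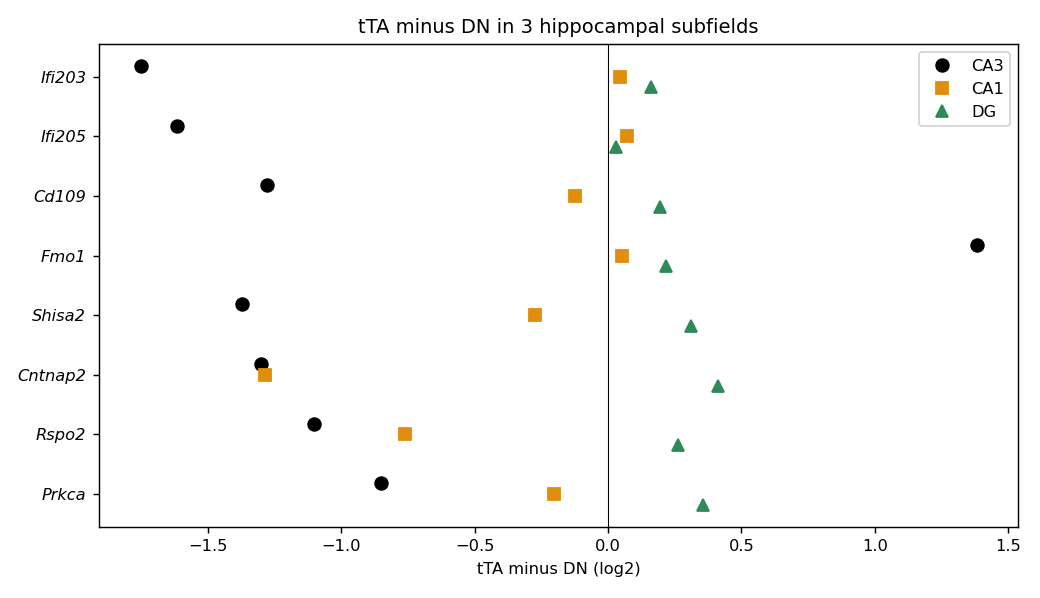
Difference between tTA and DN mice (x axis, log2) for 8 genes in CA3, CA1 and DG (5 tTA and 5 or 6 DN mice each). Ifi203 lies at −1.75 in CA3, 0.04 in CA1 and 0.16 in DG, Cd109 at −1.28, −0.12 and 0.20, and Fmo1 at 1.38, 0.05 and 0.22, while Cntnap2 lies at −1.30 in CA3 and −1.29 in CA1.

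Called genes differed in length. Each gene was read here, as in the lists, by its brightest probe set. The median genomic length was 8.97 kb for genes called higher and 60.4 kb for genes called lower, beside 19.5 kb over all 11788 genes with a length. With the genes divided into 5 bins of length, the share called higher was 8.52%, 5.3%, 3.77%, 2.67% and 1.78% in the order of rising length, and the share called lower was 1.1%, 1.87%, 2.59%, 5.77% and 11.6%. The median difference was 0.10 in the bin of the shortest genes and −0.08 in that of the longest, 0.12 and −0.08 in CA1, and 0.08 and −0.08 in DG. Signal level rose with length, from a median over the CA3 arrays of 4.14 in the shortest bin, in the dim range, to 5.84 in the longest. The part of level in the length pattern was not tested. In single arrays the median deviation from the DN mean in the shortest bin, minus that in the longest, ran from 0.14 to 0.26 in tTA and from −0.06 to 0.06 in DN, without overlap, with rTg4510 arrays at 0.05 to 0.13. Some lists fell at the ends of this range: the median length was 3.2 kb for ribosomal protein genes and 7.1 kb for the respiratory chain, and 175 kb, 170 kb and 149 kb for cell adhesion, sodium, calcium and HCN channels, and axon guidance. Other lists lay between these ends. The heat shock and unfolded protein list, at 9.43 kb, had 7 genes called lower and 0 higher. The proteasome list, at 12.3 kb, had 0 calls, and the astrocyte list, at 14.2 kb, had 13 of 18 called higher. The medians of these lists were below the 19.5 kb over all genes. Length was taken as the span of the gene in RefSeq. The Gapdh 3-prime to 5-prime ratio averaged 2.64 ± 0.15 in tTA and 3.08 ± 0.33 in DN (SD, n = 5 each, exact permutation test, two-sided, p = 0.0397, 0.0794 adjusted over the 2 ratios; the smallest p possible is 0.00794). The part of RNA quality or amplification in the length pattern was not tested.

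**Figure D5:**
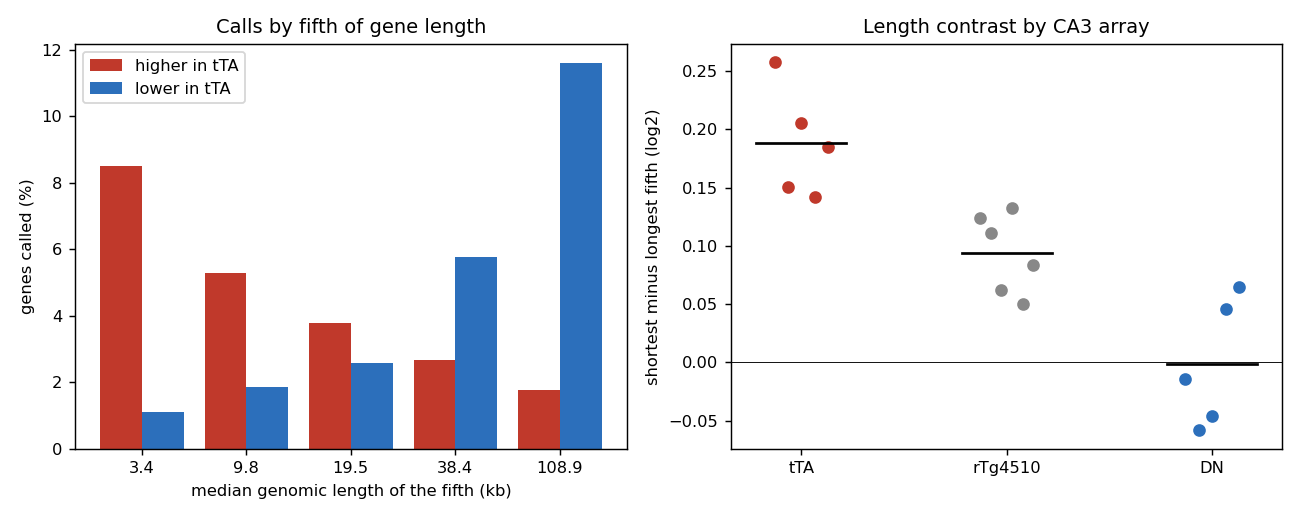
Left, percent of genes called higher or lower in tTA CA3 (y axis) in 5 bins of genomic length (x axis, median length in kb). Right, difference between the shortest and the longest bin in each CA3 array (y axis, log2; line, group mean), from 0.14 to 0.26 in tTA, 0.05 to 0.13 in rTg4510 and −0.06 to 0.06 in DN.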

How the data were processed

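Laser-captured pyramidal or granule layers of 17 mice gave 49 Affymetrix HT MG-430A arrays, with RNA amplified before labelling. The deposited values are log2 RMA levels made by the authors (background correction, quantile normalization and probe set summary) with no version stated. The log base was settled from the range of the table, 1.94 to 13.83, since natural logs would exceed the largest 16-bit intensity, 65535. An array holds no count of molecules, so the number of arrays limits the precision.

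Of 22716 probe sets 90 controls were left out and 22626 were tested without a filter. Differences of tTA minus DN were fitted with limma 3.58.1 in R 4.3.3 on the 16 CA3 arrays of 3 genotypes, with Benjamini-Hochberg adjustment over all probe sets and a threshold of 0.05. Differences between layers came from a model of all 49 arrays with the mouse as a random block (within-mouse correlation 0.117). The mouse number in the title pairs arrays of different layers. Deviations from group means of the same mouse correlated at a median of 0.119 over 47 pairs. tTA and DN share no mouse, so their comparison is unpaired. The study's methods state an analysis of variance with Fisher's least significant difference, run here as an alternative together with array weights, renormalization, a filter on dim probe sets and leaving out each array.

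Probe sets were named from the platform annotation: 18003 had 1 symbol, 287 had several and 4336 were unlisted here. A probe set was called dim below 5.01, the median over probe sets of the CA3 mean. Genes named are the 15 largest rises and falls among called probe sets with 1 symbol, up to 4 called members of each list with the smallest p, the genes of the transgene locus, and Actb, Gapdh and Mapt. Others are named as examples of a list or, where stated, after their values were seen. The comparison, its 51 lists (1361 genes, 1101 measured, each by its brightest probe set) and the named genes were chosen with earlier results of these data known, and lists are described by counts without a test. Mice are separate animals. Promoters and gene lengths came from RefSeq (GRCm38.p6 for promoters), and 4 of 4 promoters looked up were found. Unused sample columns numbered 0. The fit was tested on simulated data.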

Additional observations from a re-analysis of the deposited data

Results flagged for a closer look

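In 17 of 284 groups of 5 arrays looked at, 1 array lay far from the other 4 of its group, and chance gives about 1 in 20 groups. Among tTA mice these were Med21 at 7.06 in mouse4570 (others 7.26 to 7.30), Gabrb2 at 5.05 in mouse4637 (others 5.33 to 5.42), Kcnq5 at 6.32 in mouse4570 (others 6.67 to 6.80) and Lhx2 at 7.47 in mouse4570 (others 6.72 to 6.89). Further tTA cases were Atf6 at 5.88 in mouse4592 (others 6.88 to 7.22), Gbp3 at 5.26 in mouse4637 (others 4.38 to 4.48), Dync1i1 at 8.59 in mouse4592 (others 8.88 to 8.94) and Cdh9 at 7.83 in mouse4626 (others 7.14 to 7.27). Among DN mice these were Sema3e at 5.92 in mouse4886 (others 6.76 to 7.08), Acvr1c at 4.54 in mouse4797 (others 3.90 to 4.08), Sema5a at 8.72 in mouse4883 (others 9.22 to 9.38), C1qa at 3.69 in mouse4825 (others 3.35 to 3.45) and Vtn at 6.80 in mouse4886 (others 6.16 to 6.34). Further DN cases were Homer2 at 7.01 in mouse4825 (others 6.52 to 6.64), Fgf14 at 9.05 in mouse4886 (others 9.29 to 9.36), Chgb at 13.28 in mouse4866 (others 13.10 to 13.15) and Chl1 at 7.22 in mouse4797 (others 6.86 to 6.95). The CA3 calls of Med21, Homer2, Kcnq5, Lhx2 and Sema3e were lost without at least 1 array, as was that of Neurod6. The cause was not tested.

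The tTA minus DN difference varied between layers, by the test of that difference with the mouse as a random block, for the following genes, given as the CA3 difference minus that of the other layer on the log2 scale. Against CA1 these were Fmo1 (1.34), Ifi203 (−1.80), Ifi205 (−1.70), Cd109 (−1.15), Acvr1c (−1.14) and Pcdh20 (−0.58). Against DG these were Fmo1 (1.17), Ifi203 (−1.92), Ifi205 (−1.66), Shisa2 (−1.69), Cntnap2 (−1.72), Cd109 (−1.47), Rspo2 (−1.38), Igfbp5 (1.78), C1qa (−1.27), Kcnq5 (−1.22), Robo1 (−0.88), Neurod6 (−1.15), Gstm5 (−0.47), Prkca (−1.20) and Pde1a (−0.85). Chosen after their values were seen, further genes against CA1 were C1ql3 (3.68), Gfra2 (3.42), Tcim (−2.61), Doc2b (2.61), Cnih3 (1.65), Nfkbie (−1.60) and Tfr2 (−1.51), and against DG Cxcl12 (3.63), Doc2b (3.43), Ogn (3.24), Penk (3.06), Npnt (2.07), Arpp21 (1.88) and Pik3r1 (1.64). A positive value means that tTA stood higher relative to DN in CA3 than in the other layer. For most of the genes with values above 3, the fall lay in CA1 or DG and the gene was dim in CA3.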

How the results depend on the processing

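Adding the Actb 3-prime to 5-prime ratio as a covariate gave 1083 called probe sets, 584 higher and 499 lower, in place of 2057, 932 and 1125, and 142 called list genes in place of 232. Leaving out each array in turn gave 1060 to 2269 called probe sets, 527 to 1024 higher, 533 to 1245 lower and 143 to 238 list genes. Leaving out each mouse gave 106 to 177 differences between CA3 and CA1 and 161 to 304 between CA3 and DG. The lowest counts came without DN mouse4866 (CA3), mouse4883 (CA1 contrast) and mouse4797 (DG contrast), and the cause was not tested. The other settings kept every count within 1.5 times: 2310 called with only the tTA and DN arrays, 2296 with the mouse as a replicate block, 2710 with array weights, 1830 after a further quantile normalization (965 higher and 865 lower) and 1714 by the methods' least significant difference test. Without the block the layer contrasts gave 125 and 204. Of 142 named probe sets 0 reversed under any setting run. The block left 17 of them no longer called, the Actb covariate 38, and single arrays 5 to 36. The Gapdh ratio differed by −0.44 and that of Actb by −0.18. Dim probe sets, 195 of those called being dim in both genotypes, limit what can be read at low levels.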
